A study of Mus musculus with 6 samples.

Results

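The genes described here act at the entry into S phase and at the replication fork, and 46 of them were listed: cyclin E and its kinase, E2F factors, the MCM helicase, origin factors, polymerases, clamp and ligation proteins, enzymes of nucleotide supply, and S phase chromatin factors. They were measured on Illumina mouse bead arrays in sorted megakaryocyte progenitors of bone marrow. All probes annotated to these genes were taken, which gave 81 probes for 44 genes, and Mcm3 and Gins1 were not analysed here. A probe was kept if it lay above background on at least 3 arrays (detection p under 0.05), which left 61 probes and 40 genes. The whole arrays held 46632 probes, of which 16122 were kept, and 8946 genes were tested. The only annotated probes of E2f8, Orc1, Pola1 and Slbp did not pass, and for these 4 genes only the probe is described as near background. Such a probe does not show that its gene is silent. Mcm6, for example, had a probe above background on 0 arrays beside bright ones.

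The mice were 3 to 4 months old, of the mixed strain 129SVxC57Bl/6, and every animal carried the transgene TGPF4-CRE, in which the Pf4 promoter drives Cre recombinase in the megakaryocyte lineage. Controls were SCL wt/wt (titled TG +/+, here wild-type, 3 arrays). The other group was SCL fl/fl (titled TG fl/fl, here Scl-deleted, 3 arrays), whose floxed alleles the design describes as completely excised. Scl is the older name of Tal1, a transcription factor of blood cell formation. Whether each RNA sample was 1 mouse or a pool of mice is not stated in the labels, and the p-values below describe only how far these samples scatter, some of which may be technical.

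Replication starts from origins that are licensed in G1, when the origin recognition complex, Cdc6 and Cdt1 load the MCM helicase onto DNA. Cyclin E with Cdk2, freed from inhibitors such as p21, then helps to fire those origins, and E2F factors drive the transcription of most of the genes named here. Megakaryocytes are known for replicating their genome repeatedly without dividing, and in mice that endoreplication is known to require cyclin E.

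Of the members, 38 had a promoter in the RefSeq table (GRCm38.p6, 250 bases before to 50 bases after each annotated start). The letters TTTCCCGC, TTTCGCGC, TTTGCCGC and TTTGGCGC, which are forms of the E2F consensus, were searched on both strands. At least 1 of them stood in 16 of the 38 member promoters (42.1%), against 4.91% of the promoters of all tested genes and 2.61% of those of all genes in the table. The letters CCAAT stood in 63.2% of member promoters and in 42.9% of those of tested genes. A match describes these letters only and does not show that a factor binds. The following examples come from the 16 promoters with such a site and are given because E2F factors are members and known regulators of these genes. Each line gives 30 bases, written 5′ to 3′ on the strand of the gene, with 1 match in capitals.
Mcm5 (chr8:75109345-75109374, plus strand): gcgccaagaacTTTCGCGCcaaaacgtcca
Mcm6 (chr1:128359797-128359826, minus strand): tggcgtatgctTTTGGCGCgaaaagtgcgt
Mcm7 (chr5:138172030-138172059, minus strand): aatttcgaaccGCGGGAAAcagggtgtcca
Cdc6 (chr11:98908002-98908031, plus strand): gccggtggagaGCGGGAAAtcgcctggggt
Cdt1 (chr8:122568035-122568064, plus strand): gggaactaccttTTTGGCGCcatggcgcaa
Cdk2 (chr10:128705173-128705202, minus strand): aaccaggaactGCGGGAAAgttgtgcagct
Cdc25a (chr9:109875501-109875530, plus strand): ggtgaattccgTTTGGCGCcaactaggaaa
E2f3 (chr13:29986056-29986085, minus strand): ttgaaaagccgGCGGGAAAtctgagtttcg
Rfc3 (chr5:151651200-151651229, minus strand): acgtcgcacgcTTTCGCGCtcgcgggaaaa
Uhrf1 (chr17:56304117-56304146, plus strand): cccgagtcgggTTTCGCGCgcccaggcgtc
The capitals GCGGGAAA in Mcm7, Cdc6, Cdk2 and E2f3 are the opposite strand of TTTCCCGC. Matches on opposite strands can overlap, as in Mcm5 and Mcm6, where each of the stretches shown also holds a second, overlapping match on the other strand. The Rfc3 stretch also holds a second match, GCGGGAAA, which does not overlap the first and is left in small letters. The searched letters were not found in the windows of Ccne1, Cdc45, Dut, Mcm10 and Chaf1a, and no promoter of Ccne2 was listed. These genes are named because they had the smallest p among the members. In all, 20 tested members with a listed promoter held none of the letters, among them also E2f1, Mcm2, Pcna and Rrm2.

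Tal1 was lower in the Scl-deleted group, at 11.22, 9.80 and 11.47 (log2 intensity after background correction and normalization) against 12.83, 13.28 and 13.29 in wild-type, with a limma adjusted p of 0.0352. The place of its probe relative to the deleted part was not examined. Of the listed megakaryocyte markers, 10 of 12 were kept and all 10 lay above background on every array. Group means were below wild-type for 7 of these 10 and above it for 3 (median log2 fold change -0.21), and 0 passed. Pf4 lay between 12.13 and 12.56 and differed little. An unadjusted limma p under 0.05 was reached by 4 markers: Itga2b at 1.13, Gp1bb at 0.60, Itgb3 at -0.69 and Vwf at -0.43. Among these 4 only Vwf had groups that did not overlap. The summed linear level of all 10 was 51293 to 55821 in wild-type and 41661 to 50184 in Scl-deleted cells. Of neutrophil and monocyte markers 9 of 12 were kept and all 9 were lower on average in Scl-deleted cells (summed level 6787 to 12608 against 6100 to 7790). Of mast cell and basophil markers 6 of 8 were kept and 5 were higher (summed level 7299 to 7696 against 10798 to 12754). Most of that sum was Gata2, which progenitors also express (log2 fold change 0.66, limma adjusted p = 0.0455), and Prss34, a basophil protease gene, was at -1.87 (adjusted p = 0.121). Of stem and early progenitor markers 6 of 10 were kept and 5 were lower (median log2 fold change -0.49, summed level 6846 to 7281 against 5504 to 7211), among them Slamf1 at -1.92 and Cd34 at -0.89. Of erythroid markers 5 of 10 were kept and 3 were higher (summed level 1658 to 1998 against 1772 to 3305), with Hba-a1 at 1.28. All 3 of the 10 lymphoid markers that were kept were higher (952 to 995 against 991 to 1184). The part of these markers in the results below was not tested. Wild-type array 3 stood apart, since 695 genes passed without it against 110 with all arrays, and an estimate of array quality gave it a weight of 0.389 against 2.16 and 1.75 for wild-type arrays 1 and 2. Xist, the RNA of the inactive X chromosome, was low on Scl-deleted arrays 1 and 2, at 5.21 and 5.80, and ranged from 9.13 to 10.89 on the other 4 arrays. The labels do not give the sex of the mice, so a difference in sex between arrays was not examined. With the Xist level as a covariate, 2 genes passed in place of 110.

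No replication or G1/S gene passed the test between the genotypes, and their median difference was near 0. With limma, 0 of the 40 tested members passed an adjusted p of 0.05, against 1.23% of all tested genes. At an unadjusted p under 0.05 there were 2 members with a higher mean (Ccne1 and Mcm10), against 9.51% of all genes, and 3 with a lower mean (Ccne2, Cdc45 and Dut), against 6.48%. The members' median log2 fold change was 0.03 and that of all tested genes was also 0.03, with 23 members higher and 17 lower in Scl-deleted cells. These are bulk samples, in which fewer cells in S phase and less RNA per cell cannot be told apart. The median size of the difference, with its sign dropped, was 0.15 for the members and 0.17 for all genes. Fold changes below 0.5 in size on the log2 scale were found for 37 of the 40 members (92.5%) and for 89.8% of all genes.

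**Figure D1:**
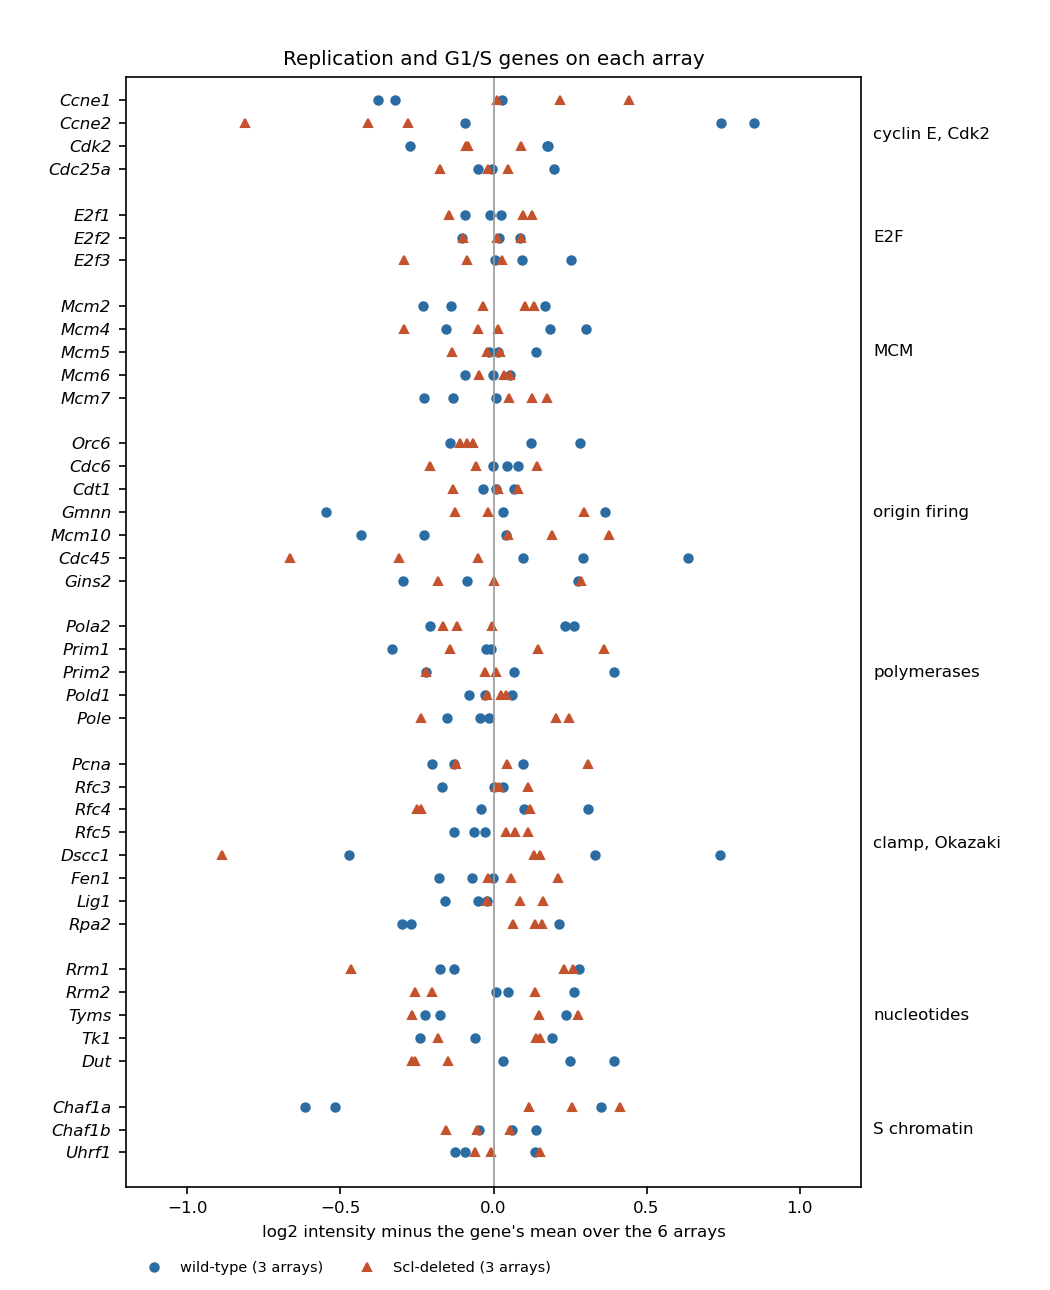
Each row is a replication or G1/S gene and each point an array, placed by its log2 intensity minus the gene's mean over the 6 arrays (circles wild-type, triangles Scl-deleted, 3 arrays each). The genotypes mix in most rows and stand apart in 7 (17.5%, against 19.6% of all tested genes). Ccne2, Cdc45 and Dut lie below wild-type, and Mcm7, Mcm10, Rfc5 and Lig1 above it.

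The precision of these arrays can be read from the 95% intervals of the fold changes, which come from the same limma fit. For 36 of the 40 members (90.0%) the whole interval lay between -1 and 1 on the log2 scale; the share over all tested genes was 90.6%. For 20 members the interval lay within 0.5 either way, against 44.7% of all genes. The 4 members with a wider interval were Ccne2, Cdc45, Dscc1 and Chaf1a. The pooled SD between arrays of a group had a median of 0.18 over the members and 0.19 over all genes.

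**Figure D2:**
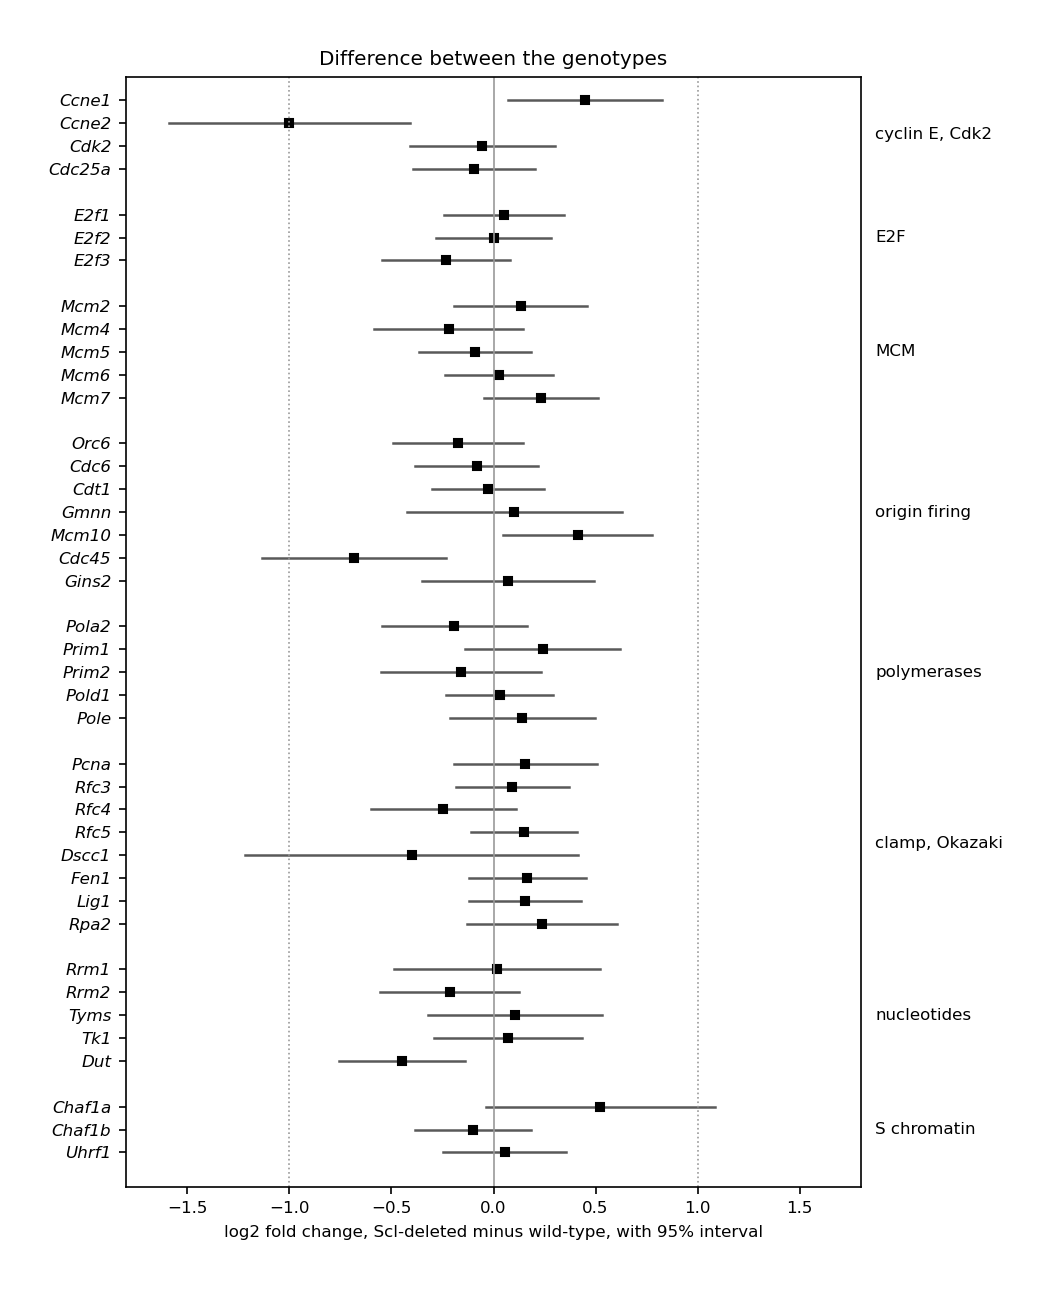
Squares are log2 fold changes of the 40 tested genes (Scl-deleted minus wild-type) and bars their 95% intervals, with dotted lines at -1 and 1. The intervals of Ccne2, Cdc45, Dscc1 and Chaf1a cross a dotted line, and those of the other 36 genes do not.

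The 2 cyclin E genes, whose products activate Cdk2 at the start of S phase, had differences in opposite directions, and neither passed the threshold. Ccne1 was at 7.08, 7.14 and 7.49 on the wild-type arrays and at 7.47, 7.90 and 7.68 on the Scl-deleted arrays. Wild-type array 3 lay just above the lowest Scl-deleted array, so the groups overlapped. The log2 fold change of Ccne1 was 0.45 ± 0.16 (SE), 1.36-fold, with an unadjusted limma p of 0.0250 and an adjusted p of 0.250. Ccne2 was at 6.47, 6.58 and 5.64 on the wild-type arrays and at 5.45, 5.32 and 4.92 on the Scl-deleted arrays. Its groups did not overlap, but wild-type array 3 lay far below the other wild-type arrays and near Scl-deleted array 1. The log2 fold change was -1.0 ± 0.26 (SE), 2.00-fold lower, with an unadjusted p of 0.00422 and an adjusted p of 0.135. Ccne2 was dim, above background on 1 of the 3 Scl-deleted arrays, and without background correction its log2 fold change was -0.49. Whether the 2 genes differ from each other in their response was not tested.

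Cdk2, the kinase that both cyclins bind, was at 11.82, 11.81 and 11.37 in wild-type and at 11.73, 11.55 and 11.56 in Scl-deleted cells. The difference was -0.05, with a 95% interval from -0.41 to 0.30, and its 4 kept probes ranged from -0.44 to -0.05. The probe at -0.44 was the dimmest of the 4, with an unadjusted p of 0.0492 in the limma fit over probes (adjusted p = 0.340). Cdc25a, the phosphatase that removes inhibitory phosphates from Cdk2, was at 9.59, 9.64 and 9.84 against 9.63, 9.47 and 9.69. The groups overlapped in part, with a log2 fold change of -0.10 (interval -0.39 to 0.20).

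The activating E2F factors, which switch on S phase genes, did not pass the test either. E2f1 was at 10.22, 10.14 and 10.25 in wild-type and at 10.35, 10.08 and 10.33 in Scl-deleted cells, a log2 fold change of 0.05 (interval -0.24 to 0.34). E2f2 was at 9.04, 8.97 and 8.85 against 8.85, 9.04 and 8.96, with group means of 8.95 in each. E2f3 was at 7.79, 7.95 and 7.70 against 7.61, 7.40 and 7.73. Its log2 fold change was -0.23 (interval -0.55 to 0.08, limma adjusted p = 0.439), and its other kept probe was at -0.27. The only probe of E2f8, an atypical E2F that represses E2F targets, was above background on only 1 array, a wild-type array.

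Of the 5 tested subunits of the MCM helicase, which unwinds DNA ahead of the fork, 3 were higher and 2 lower on average, with log2 fold changes from -0.22 to 0.23. Mcm5 was at 13.11, 13.23 and 13.08 in wild-type and at 13.07, 12.96 and 13.11 in Scl-deleted cells. Mcm2 was at 11.40, 11.31 and 11.71 against 11.50, 11.67 and 11.64. Mcm6 varied least among these subunits, with all 6 arrays between 11.42 and 11.57. The log2 fold changes of Mcm5, Mcm2 and Mcm6 were -0.09, 0.13 and 0.03. Mcm7 was at 11.22, 11.13 and 11.36 against 11.53, 11.40 and 11.48, with groups that did not overlap and a log2 fold change of 0.23 (interval -0.05 to 0.51, adjusted p = 0.389). Its dimmer kept probe went the other way, at -0.30. Mcm4 was at 12.94, 12.82 and 12.48 against 12.65, 12.35 and 12.59, a log2 fold change of -0.22 (interval -0.58 to 0.14).

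Among the 7 tested genes of origin licensing and firing, Cdc45 and Mcm10 differed most and in opposite directions. Cdc45, which joins MCM and GINS in the active helicase, was at 7.38, 7.04 and 6.84 in wild-type and at 6.69, 6.44 and 6.08 in Scl-deleted cells. The groups did not overlap, with a log2 fold change of -0.68 ± 0.20 (SE), 1.60-fold lower (limma unadjusted p = 0.00788, adjusted p = 0.159). It was -0.39 with the authors' normalized values. Mcm10, which helps to activate the loaded helicase, was at 8.23, 8.02 and 8.50 against 8.50, 8.83 and 8.65. Its groups were apart only by a gap between 2 arrays that both round to 8.50. The log2 fold change was 0.41 ± 0.16 (SE), 1.33-fold (unadjusted p = 0.0311, adjusted p = 0.267).

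The loading factors differed little between arrays. Cdc6, which with the origin recognition complex loads MCM, was at 8.34, 8.38 and 8.30 in wild-type and at 8.24, 8.09 and 8.44 in Scl-deleted cells. Cdt1, its partner in loading, was at 10.58, 10.48 and 10.52 against 10.52, 10.38 and 10.59. Their log2 fold changes were -0.08 (interval -0.38 to 0.22) and -0.03 (interval -0.30 to 0.25). Gmnn encodes geminin, the inhibitor of Cdt1 that prevents origins from being licensed again. It was dim, above background on 2 arrays of each group, at 5.83, 5.49 and 4.92 against 5.76, 5.34 and 5.45 (log2 fold change 0.10, interval -0.42 to 0.63). Orc6, a subunit of the origin recognition complex, and Gins2, a subunit of GINS, had log2 fold changes of -0.17 and 0.07. The 3 kept probes of Gins2 ranged from -0.26 to 0.16. The only probe of Orc1, the largest subunit of the origin complex, was above background on 0 arrays.

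The polymerase and primase genes had log2 fold changes from -0.19 to 0.24, with 3 of 5 higher. Pole, the catalytic subunit of the leading strand polymerase, was at 9.14, 9.04 and 9.17 in wild-type and at 9.39, 8.95 and 9.43 in Scl-deleted cells, with Scl-deleted array 2 the lowest of the 6. Its log2 fold change was 0.14 (interval -0.22 to 0.50). Pold1, the catalytic subunit of the polymerase of the lagging strand, varied little, with a log2 fold change of 0.03 and an interval from -0.23 to 0.29. Prim1, the catalytic primase subunit that makes the RNA primers, was at 6.81, 6.48 and 6.79 against 6.96, 6.67 and 7.18. The groups overlapped, and the log2 fold change was 0.24 (interval -0.14 to 0.62, limma adjusted p = 0.510). Prim2, the other primase subunit, and Pola2, a subunit of polymerase alpha, had -0.16 and -0.19. The only probe of Pola1, the catalytic subunit of polymerase alpha, was above background on 0 arrays.

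Of the 8 genes for the sliding clamp, its loaders and the joining of Okazaki fragments, 6 were higher on average and the median log2 fold change was 0.15, against 0.03 over all genes. None of the 8 had an unadjusted limma p under 0.05 on the probe that stood for the gene. Pcna, the sliding clamp that p21 also binds, was at 7.47, 7.25 and 7.18 in wild-type and at 7.42, 7.26 and 7.69 in Scl-deleted cells, a log2 fold change of 0.16 (interval -0.19 to 0.50). Rpa2, a subunit of the protein that coats single-stranded DNA, was at 9.28, 9.31 and 9.80 against 9.64, 9.74 and 9.71. Wild-type array 3 was the highest of all 6 arrays on this brightest probe, and the log2 fold change was 0.24 (limma adjusted p = 0.504). The other kept probes of Rpa2 were at 0.50 and 0.19, and on neither was wild-type array 3 the highest. The first had an unadjusted p of 0.0173 in the limma fit over probes (adjusted p = 0.255).

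Fen1, the nuclease that trims Okazaki fragments, was at 11.68, 11.58 and 11.75 against 11.81, 11.73 and 11.96 (log2 fold change 0.17, interval -0.12 to 0.45). Lig1, the ligase that joins them, and Rfc5, a clamp loader subunit, each had a log2 fold change of 0.15 and groups that did not overlap. For Lig1 the gap lay between arrays that both round to 10.72. Rfc4, another clamp loader subunit, was at 10.51, 10.72 and 10.37 against 10.17, 10.16 and 10.53, with overlapping groups and a log2 fold change of -0.25 (interval -0.60 to 0.11). Its dimmer kept probe was at 0.01. Rfc3 had 0.09. Dscc1, a subunit of a clamp loader that acts in sister chromatid cohesion, was the most variable member, with wild-type values from 5.64 to 6.85 and Scl-deleted values from 5.22 to 6.26, and its log2 fold change was -0.40 (interval -1.22 to 0.42).

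Within nucleotide supply, Dut had the largest difference of the 5 genes. Dut encodes the dUTPase that keeps uracil out of DNA, and it was at 9.24, 9.10 and 8.88 in wild-type and at 8.70, 8.58 and 8.59 in Scl-deleted cells. The groups did not overlap, and the log2 fold change was -0.45 ± 0.13 (SE), 1.36-fold lower (limma unadjusted p = 0.00977, adjusted p = 0.172). Its dimmer kept probe was at -0.12. Rrm1, the large subunit of ribonucleotide reductase, was at 11.52, 11.47 and 11.92 against 11.18, 11.87 and 11.90, with a log2 fold change of 0.02 (interval -0.49 to 0.52). A dimmer kept probe of Rrm1 was at -0.61, so the 2 probes disagree for this gene. Rrm2, the small subunit, was at 9.08, 8.86 and 8.82 against 8.56, 8.95 and 8.61, a log2 fold change of -0.22 (interval -0.56 to 0.13). Tyms, thymidylate synthase, was at 10.92, 10.46 and 10.51 against 10.96, 10.84 and 10.42. Its groups overlapped, with a log2 fold change of 0.11, and its other kept probes were at 0.18 and 0.39. The probe at 0.39 was dim, at 5.32, 5.38 and 5.39 against 5.74, 5.79 and 5.70, so its groups did not overlap. Its unadjusted p in the limma fit over probes was 0.0123 (adjusted p = 0.226). Tk1, thymidine kinase, had 0.07 on the probe that stood for the gene and 0.06 on the other.

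Chaf1a, the large subunit of the chromatin assembly factor that places histones on new DNA, had the highest fold change of the members. It was at 9.31, 9.41 and 10.28 in wild-type and at 10.34, 10.18 and 10.05 in Scl-deleted cells. Wild-type array 3 lay within the Scl-deleted range, and the log2 fold change was 0.52 ± 0.25 (SE), 1.44-fold (limma unadjusted p = 0.0637, adjusted p = 0.339). Chaf1b, another subunit of that factor, had -0.10. Uhrf1, which carries DNA methylation over to new strands, was at 12.31, 12.04 and 12.08 against 12.16, 12.11 and 12.32, a log2 fold change of 0.05 (interval -0.25 to 0.36). The only probe of Slbp, the histone mRNA binding protein, was above background on 0 arrays.

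**Figure D3:**
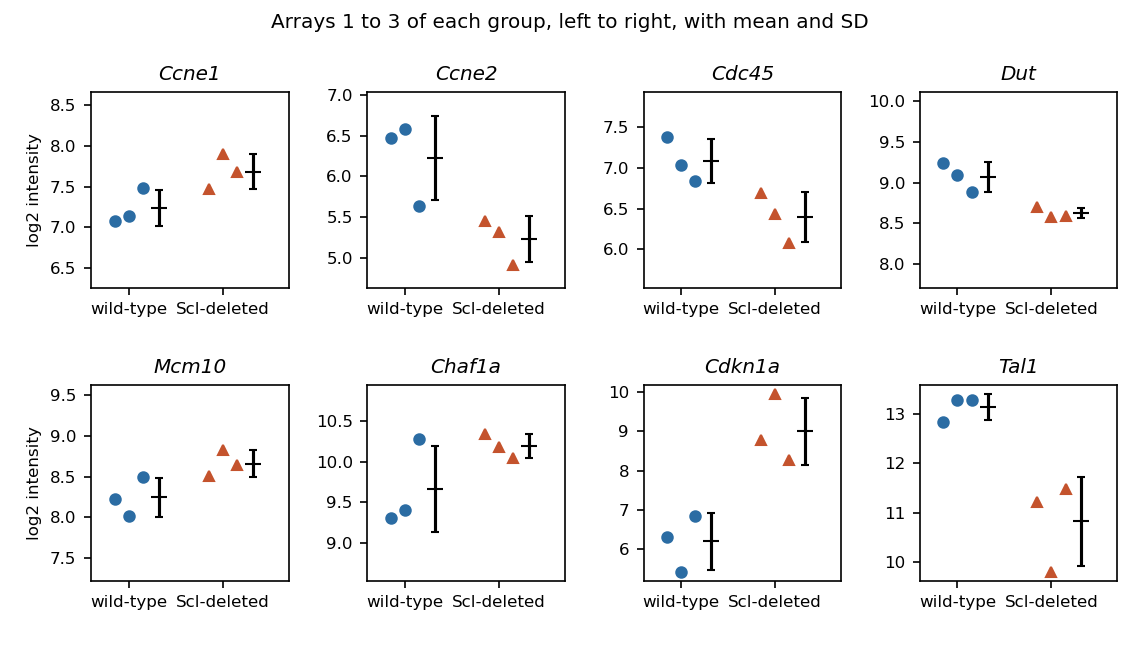
Log2 intensity on arrays 1 to 3 of each group, left to right, with mean and SD (n = 3), for the 6 members with the smallest p and for Cdkn1a and Tal1; each panel has its own axis. Wild-type array 3 (the rightmost circle) lies toward the Scl-deleted arrays for Ccne1, Ccne2, Cdc45, Dut, Mcm10 and Chaf1a.

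In all, the groups did not overlap for 7 of the 40 members (17.5%), against 19.6% of all tested genes. Mcm7, Mcm10, Rfc5 and Lig1 were higher, against 11.3% of all genes, and Ccne2, Cdc45 and Dut lower, against 8.35%. Over the 61 kept probes of the members, 0 passed an adjusted p of 0.05, against 0.453% of all kept probes. At an unadjusted p under 0.05 there were 8 member probes (13.1%), against 14.6% of all probes. Of the 15 members with several kept probes, all probes pointed in the same direction in 11, and they did not in Gins2, Mcm7, Rfc4 and Rrm1.

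These counts depended on wild-type array 3. Without it, 3 of the 40 members passed, against 7.77% of all genes: Ccne2 at -1.30 (limma adjusted p = 0.0129), Dut at -0.54 (adjusted p = 0.0456) and Chaf1a at 0.83 (adjusted p = 0.0187). Without this array the groups were apart for 19 members, against 45.6% of all genes. With fewer arrays groups separate more easily: with wild-type array 1 or 2 left out, 11 and 8 members were apart, against 24.3% and 24.1% of all genes. Leaving out 1 of Scl-deleted arrays 1 to 3 gave 8, 12 and 12 members, against 35.2%, 27.7% and 29.0% of all genes. With median scaling in place of quantile normalization it was 4, against 13.3% of all genes. With weights for array quality, 5 members passed, against 10.2% of all genes: Ccne1, Ccne2, Cdc45, Dut and Chaf1a, at 0.52, -1.28, -0.85, -0.53 and 0.72. With the Xist level as a covariate 0 members passed, and Ccne2, Ccne1 and Chaf1a were at -1.10, 0.40 and 0.25. The part of the difference in Xist between arrays in these results was not tested beyond that fit.

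**Figure D4:**
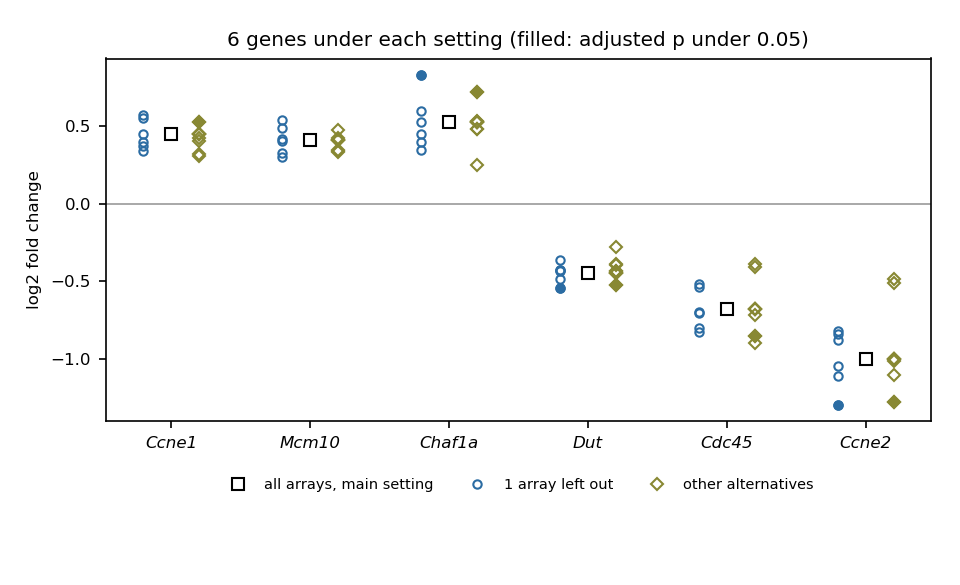
Log2 fold changes of 6 members with all arrays (squares), with 1 array left out (circles) and under the other alternatives (diamonds); filled symbols have a limma adjusted p under 0.05. The direction is the same under every setting run, and filled symbols come from leaving out wild-type array 3 or from array weights.

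The members' common level varied less between arrays after quantile normalization than after median scaling. With quantile normalization the median deviation of the 40 genes from their own means was 0.02, -0.06 and 0.00 on wild-type arrays 1 to 3 and 0.01, -0.05 and 0.05 on Scl-deleted arrays 1 to 3. With median scaling it was 0.15, -0.13 and -0.073 in wild-type and 0.22, -0.076 and -0.084 in Scl-deleted cells. By subgroup, the median log2 fold change was 0.03 for MCM, 0.03 for polymerases and primase, 0.02 for nucleotide supply, 0.00 for E2F factors and -0.08 for cyclin E, Cdk2 and Cdc25a. It was -0.03 for origin licensing and firing and 0.05 for S phase chromatin.

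The 13 tested members with an E2F site in the promoter had a median log2 fold change of 0.00, from -0.23 to 0.23, and none had an unadjusted p under 0.05. The 20 with a listed promoter and no such site had a median of 0.09, from -0.68 to 0.52, and 4 of them had an unadjusted p under 0.05. The difference between these sets was not tested. Over all 361 tested genes with such a site the median was 0.02, 2 passed the threshold (0.554%), and 13.6% had an unadjusted p under 0.05. For the 7346 tested genes with any listed promoter the shares were 1.13% and 15.9%.

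**Figure D5:**
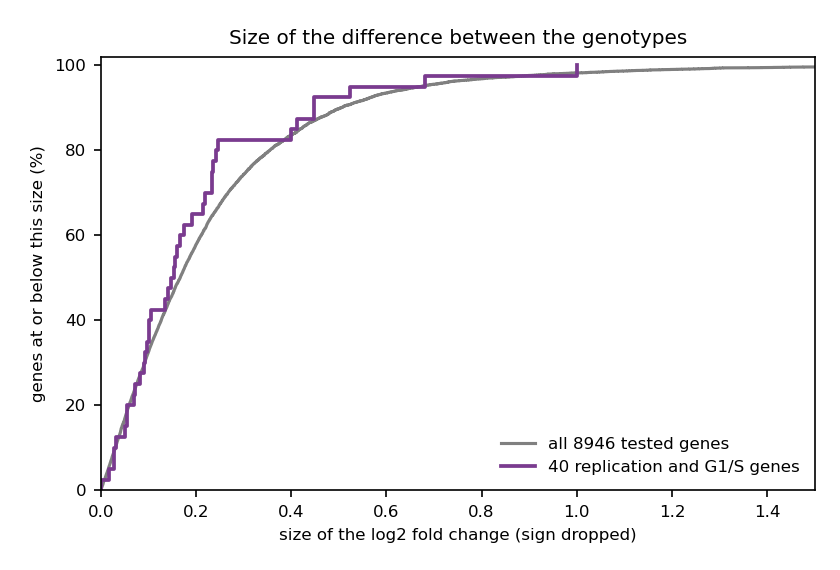
Cumulative share of genes (%) by the size of their log2 fold change between the genotypes, for the 40 tested members and for all 8946 tested genes. The curves run close together, with medians of 0.15 and 0.17.

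Cdkn1a, which encodes p21, the inhibitor of cyclin E with Cdk2, was at 6.31, 5.42 and 6.85 in wild-type and at 8.78, 9.94 and 8.27 in Scl-deleted cells. Among the other pathway lists it alone passed (log2 fold change 2.80, SE 0.46, 6.96-fold, adjusted p with limma 0.0339). That call was lost without any 1 of wild-type arrays 1 and 2 and Scl-deleted arrays 1 and 2 (limma adjusted p 0.0796 to 0.116). It was also lost without the detection filter (0.130), with the Xist covariate (0.357), with the replicate block and with the stricter detection filter. The log2 fold change of Cdkn1a was 2.00 without background correction and 1.97 with the authors' normalized values. On wild-type array 2 Cdkn1a, at 5.42, lay near the lowest value above background there (5.31).

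Of 39 other tested replication genes 0 passed, with 18 higher and 21 lower, a median log2 fold change of -0.01 and a range from -0.41 to 0.43. At an unadjusted p under 0.05 there was 1 of them (2.56%), against 16% of all tested genes. It was Chtf18, the large subunit of the clamp loader that holds Dscc1, at 0.43 (limma adjusted p = 0.283). Of 4 other tested E2F and DP genes 0 passed, though E2f7, an atypical repressor like E2f8, and E2f6, a repressor of E2F targets, had log2 fold changes of 0.42 and -0.41 with unadjusted p of 0.0161 and 0.0301. Their groups did not overlap, and neither did those of Tfdp2, at 0.29. Of the 4 genes 3 (75%) were thus apart, against 19.6% of all tested genes. An unadjusted limma p under 0.05 was reached by 2 (50%), against 16% of all tested genes. With the authors' normalized values E2f7 was at 0.21 and E2f6 at -0.40. Of 24 tested genes of mitosis and G2/M 0 passed, 12 were higher and 12 lower, the median was 0.01, and 3 (12.5%) had an unadjusted p under 0.05, against 16% of all tested genes. These were Nuf2, a kinetochore gene, at -1.06 (adjusted p = 0.143), Incenp at 0.42 and Bub1b at -0.41. Top2a, the topoisomerase that untangles replicated DNA, had 0.27 on its brightest probe and -0.021 with the mean of its probes. With array weights, where 10.2% of all genes passed, Chtf18, E2f6, E2f7 and Incenp passed (log2 fold changes 0.57, -0.50, 0.51 and 0.51). Without wild-type array 3, where 7.77% of all genes passed, E2f6 and Incenp passed. Without Scl-deleted array 3, where 0.85% of all genes passed, Nuf2 passed.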

How the data were processed

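Signals of 6 arrays were deposited as log2 values that were not normalized, with a detection score per probe and array. The deposited score rises with the signal (rank correlation at least 0.997), and the detection p was taken as 1 minus it. A further table by the authors, also in log2, lies within 0.0865 of quantile normalization of the first and served as an alternative. Of the authors' own tools, limma is named per the submitters' processing notes, without a version.

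The signals, made linear again, went through the neqc function (limma 3.58.1, R 4.3.3: normal-exponential background correction, offset 16, quantile normalization, which would hide a shift of most genes). The brightest kept probe stood for each gene. The platform annotation gave 1 symbol for 29976 probes. Groups were compared by a two-sided test in limma (lmFit, eBayes), adjusted by Benjamini-Hochberg over all 8946 genes with a threshold of 0.05. Every p and 95% interval comes from this fit, except where probes or an alternative setting are named. Those p come from the same test fitted to the probes or under that setting. A fit without an array assumes the same spread. The fit was run on simulated data only to check that it recovers large changes. Noise was drawn independently for each gene and array there, so that run does not describe the power for the members. An array had 15183 to 16338 probes above background, and the number of arrays limits the precision.

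The members, gene lists and tests were chosen with earlier results of these data known. Values by array are given for the 14 members with the smallest p and a fixed set, all others by fold change and counts. Alternatives were the authors' values, no background correction, median scaling, detection filters, another prior, weights for array quality, a replicate block, the mean of probes, the Xist level as a covariate, a threshold of 0.10 and leaving out each array. The labels and files used here name no batch.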

Additional observations from a re-analysis of the deposited data

How the results depend on the processing

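The median log2 fold change of the members lay between -0.0037 and 0.046 under all 16 alternatives, and 0 members passed under any of them other than array weights (5) and leaving out 1 array (0 to 3, the highest without wild-type array 3). Counts over all genes moved more, from 110 to 27 without the detection filter, 69 with the stricter filter, 913 with array weights, 50 with the replicate number as a block, 2 with the Xist covariate, 204 at a threshold of 0.10, and 16 to 695 with 1 array left out. Members with groups apart numbered 4 with median scaling, against 13.3% of all genes. With 1 array left out they numbered 8 to 19, against 24.1% to 45.6% of all genes. Member probes passing numbered 0 to 3 with 1 array left out, and the share over all probes was not taken for those fits. Of the 72 other tested pathway genes 1 passed, and 5 passed with array weights, against 10.2% of all genes. None passed without the filter (86 tested), with the stricter filter (61 tested), with the replicate block or with the Xist covariate. With 1 array left out 0 to 3 passed, against 0.179% to 7.77% of all genes. The causes were not tested.

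Median scaling moved the members' median deviation to 0.15, -0.13 and -0.073 on wild-type arrays 1 to 3 and to 0.22 and -0.084 on Scl-deleted arrays 1 and 3. The direction turned for some genes. Mcm7, from 0.23, Rrm1, Gins2 and Top2a were at -0.032, -0.30, -0.010 and -0.021 with the mean of their probes. Cdc6, Cdt1, Tyms, Gins2, Tk1 and Top2a were at 0.071, 0.039, -0.14, -0.17, -0.17 and -0.0071 with the Xist covariate, and E2f2, Gmnn and Tyms at -0.045, -0.10 and -0.030 with array weights. With 1 array left out, the log2 fold change ran from -0.20 to 0.021 for Cdk2, -0.052 to 0.050 for E2f2, -0.17 to 0.0022 for Cdc6, -0.073 to 0.033 for Cdt1, -0.15 to 0.31 for Gmnn, -0.11 to 0.25 for Rrm1, -0.0055 to 0.27 for Tyms, -0.0082 to 0.14 for Uhrf1, -0.012 to 0.061 for Mcm6, -0.00046 to 0.069 for Pold1, -0.059 to 0.23 for Gins2 and -0.029 to 0.19 for Tk1.

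Replicate numbers were not taken as pairs, since nothing in the labels says that they pair samples. Deviations of arrays with the same number correlated at 0.11, -0.27 and -0.18 over all genes, against -0.17 to 0.29 between different numbers. Over the 40 members alone these correlations were 0.49, 0.19 and 0.18, against -0.35 to 0.11 between different numbers. Whether the numbers pair samples is left unsettled. With the replicate block 0 members passed, and Ccne2 and Cdkn1a had limma adjusted p of 0.0572 and 0.0739. Dim probes limit what can be said of Ccne2, Gmnn and Dscc1, which were not above background on every array.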
